A study of Mus musculus with 8 samples.

Results

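Fatty acid binding and triglyceride handling in mouse stomach is described here by 10 genes out of 21626 measured. Fabp1, Fabp2, Fabp4 and Fabp5 encode fatty acid binding proteins, Mogat1, Mogat2, Dgat1 and Dgat2 encode acyltransferases that build triglyceride, and Lpl and Cd36 act in fatty acid supply at the cell surface. The genes were chosen by name with earlier results of these arrays known, and where a gene had several probe sets, the brightest on average over the 8 arrays stood for it. The group comparison was in view when they were chosen, so their differences between groups are given as a description, with no p-value. The number of them that passed the test run over all genes is given beside the share of all genes that did, and nothing is read from it. The arrays came from 4 gastric adenocarcinomas of mice carrying a transgene and from 4 samples of normal gastric mucosa. The labels name no transgene, promoter, strain, sex or age, and they leave unstated if the normal mucosa was taken from animals with the transgene and if the 8 samples are from 8 animals. The p-values given below for other genes therefore rest on the spread among these arrays alone, part of which may be technical.

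Dietary and circulating triglyceride cannot cross a cell membrane. Lipases such as lipoprotein lipase cut it to fatty acids, membrane proteins such as CD36 help these enter, and the small cytosolic fatty acid binding proteins carry them to their sites of use. Monoacylglycerol acyltransferases then add a fatty acid to make diacylglycerol, and diacylglycerol acyltransferases add the last one to make triglyceride, which is stored in lipid droplets or exported in lipoproteins. In the gut this chain is best known from enterocytes of the small intestine, while the glands of the stomach are known for acid and enzyme secretion.

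The groups could be told apart by their cell type markers, as mean log2 values over each list. Parietal cell markers averaged 8.01 to 8.31 in adenocarcinoma, against 12.0 to 12.2 in normal mucosa, and 7 of 7 were lower in the limma test. Chief cell markers averaged 7.72 to 8.80 in adenocarcinoma, against 11.9 to 12.5 in normal mucosa, with 5 of 5 lower. Smooth muscle markers averaged 9.22 to 12.2 in adenocarcinoma, against 7.82 to 7.97 in normal mucosa, endothelial markers 9.69 to 10.6 and 7.45 to 7.54, and macrophage markers 10.5 to 11.1 and 7.59 to 7.80, with 6 of 6, 8 of 8 and 8 of 8 higher. In bulk tissue, fewer cells of a type and less RNA per cell cannot be told apart. Xist, the RNA that silences an X chromosome in female cells, was at 6.2 to 6.6 in adenocarcinoma, against 11.6 to 12.7 in normal mucosa. Sex and tissue cannot be told apart here. The part of these shifts in the differences below was not tested.

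Promoter sequences were at hand for 4 of the 10 genes, in the RefSeq table of build GRCm38.p6, as the 250 bases before the annotated start of transcription. They are shown for Fabp1, which holds every motif searched, for Mogat1, which had the largest difference between groups, and for Cd36, which varied most among the tumours. The motifs were a direct repeat of the kind bound by PPAR and HNF4 nuclear receptors (AGGNCANAGGNCA), a single unit and the TATA box (TATAAA). The single unit was searched as AGGTCA, with T in place of the open base N in the repeat's units. Both strands were read, and capitals mark a match.
Fabp1, chr6:71199629-71199878, plus strand: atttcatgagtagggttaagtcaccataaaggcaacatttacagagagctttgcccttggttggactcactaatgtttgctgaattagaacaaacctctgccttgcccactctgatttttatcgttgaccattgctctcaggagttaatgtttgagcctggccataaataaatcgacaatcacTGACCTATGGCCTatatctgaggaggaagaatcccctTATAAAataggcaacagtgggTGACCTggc
Mogat1, chr1:78510810-78511059, plus strand: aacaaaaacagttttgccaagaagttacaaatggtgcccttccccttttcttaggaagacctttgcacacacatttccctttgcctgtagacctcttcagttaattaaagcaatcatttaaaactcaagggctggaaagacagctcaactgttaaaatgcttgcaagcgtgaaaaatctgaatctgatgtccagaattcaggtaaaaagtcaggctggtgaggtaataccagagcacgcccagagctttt
Cd36, chr5:17835897-17836146, minus strand: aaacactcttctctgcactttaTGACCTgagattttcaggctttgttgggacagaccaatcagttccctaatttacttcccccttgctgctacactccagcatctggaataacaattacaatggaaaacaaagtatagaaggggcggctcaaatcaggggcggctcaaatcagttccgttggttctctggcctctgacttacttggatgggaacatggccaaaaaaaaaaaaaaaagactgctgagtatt
The Fabp1 window holds the direct repeat on its minus strand, 67 to 55 bases before the start, where it overlaps a single unit (67 to 62), with another single unit at 9 to 4 and a TATA box at 30 to 25. Such a repeat is in 0.338% of 32851 windows of the same length, a single unit in 14% and a TATA box in 12.4%. The Cd36 window holds a single unit, 228 to 223 bases before the start. These letters were not in the windows of Mogat1 and Fabp2.

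Mogat1 had the largest difference between the groups. This gene encodes the monoacylglycerol acyltransferase described in mouse stomach, kidney and adipose tissue. Its log2 values were 6.2, 7.6, 6.6 and 6.6 in the 4 adenocarcinomas, against 11.9, 12.2, 12.4 and 12.4 in the 4 normal samples. The groups lie far apart, and replicate 2 was the highest tumour. The means were 6.75 ± 0.597 and 12.2 ± 0.236 (SD, n = 4 each), a difference of -5.48 ± 0.27 (SE), or 44.5-fold lower. Adenocarcinoma replicate 1 lay near the median background probe of its array (6.1), and replicates 3 and 4 not far above theirs (6.2 each). The size of the difference may therefore be limited by background.

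Its relative Mogat2, the main monoacylglycerol acyltransferase of the small intestine, went the other way. Its values were 10.6, 11.1, 10.4 and 10.7 in adenocarcinoma, against 9.4, 9.0, 9.3 and 9.5 in normal mucosa. All tumours were above all normal samples. The difference was 1.40 ± 0.164, or 2.64-fold higher. Mogat2 was the only member of the 10 that was higher in adenocarcinoma with no overlap between the groups.

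Both enzymes of the last step were lower, by smaller amounts. Dgat1 encodes the diacylglycerol acyltransferase that is structurally unrelated to the other 3 acyltransferases. It was at 10.1, 10.5, 10 and 10.1 in adenocarcinoma, against 11.3, 11.3, 11 and 11.4 in normal mucosa, a difference of -1.08 ± 0.134 (2.11-fold lower). Dgat2, of the same protein family as Mogat1 and Mogat2, was at 11.4, 11.4, 11.4 and 11.5 in adenocarcinoma, against 12.4, 12.2, 12.5 and 12.5 in normal mucosa, a difference of -0.98 ± 0.0926 (1.97-fold lower). The adenocarcinomas were almost level for Dgat2, and neither gene's groups overlapped.

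Dgat2 and Mogat2 are neighbours that differed in opposite directions. In the deposited table, with a genome build not given in the sources used, Dgat2 lies on chromosome 7 from 106302168 to 106331227 and Mogat2 from 106367594 to 106387113, both on the minus strand and 36.4 kb apart. Of 8 other genes with a probe set within 250 kb (250000 bases) of either, 2 rose in the limma test at an adjusted p under 0.05 and none fell. The 8 include the small nucleolar RNA genes Snord15a and Snord15b, which lie within Rps3 and were not called. Over all genes, 18.2% rose and 23.6% fell in that test. The rises were Uvrag (0.60 ± 0.133, adjusted p = 0.00793) and Rps3 (0.65 ± 0.0807, adjusted p = 0.000384). These 2 genes are named as the calls in that window, after their values were seen.

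**Figure D1:**
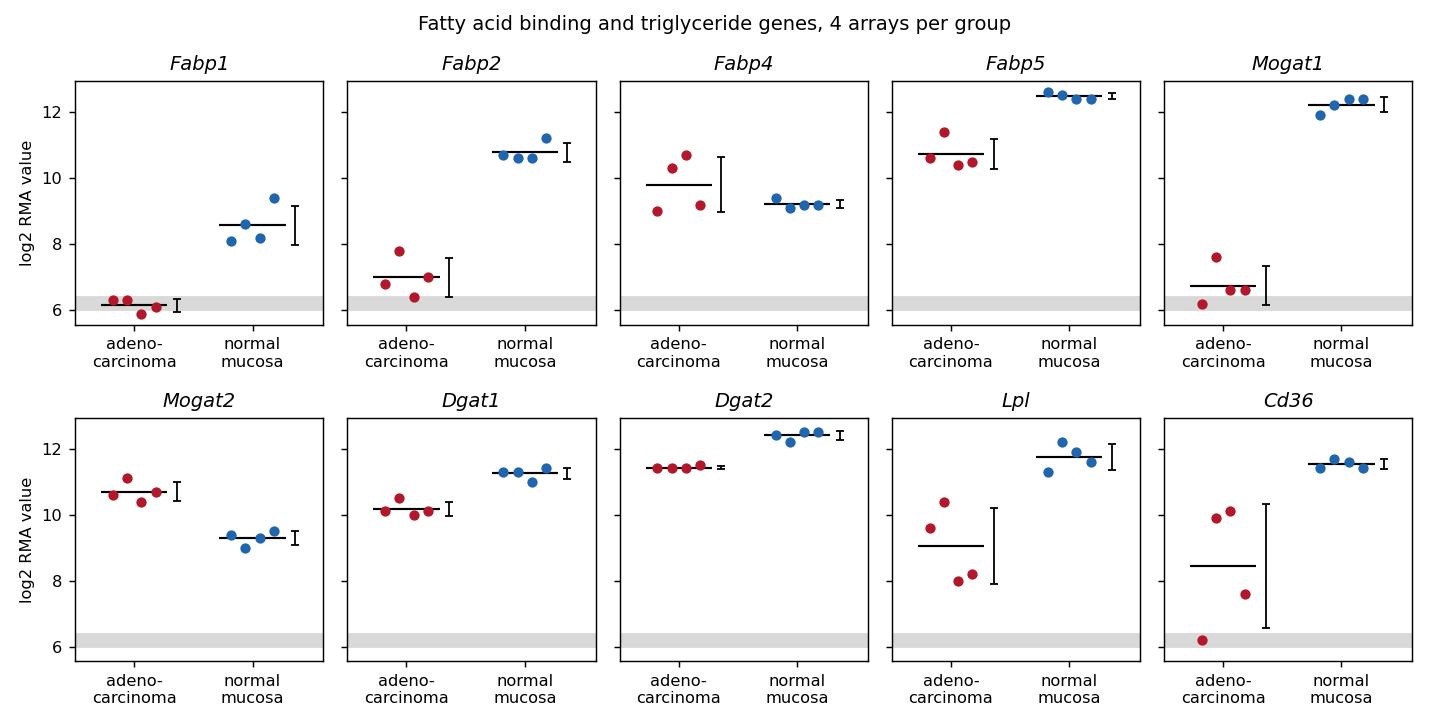
Log2 RMA values (y axis) of the 10 genes, with a point per array, adenocarcinoma left (red) and normal mucosa right (blue), lines at group means and bars of 1 SD (n = 4 each). The grey band spans the median background probe of the 8 arrays (6.0 to 6.4). Groups are apart for 9 genes and overlap for Fabp4.

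The intestinal binding proteins were both lower. Fabp2, the intestinal form, was at 6.8, 7.8, 6.4 and 7.0 in adenocarcinoma, against 10.7, 10.6, 10.6 and 11.2 in normal mucosa. No tumour came near the normal range, with a difference of -3.78 ± 0.275 (13.7-fold lower). Fabp1, the liver form, which enterocytes also use, was at 6.3, 6.3, 5.9 and 6.1 in adenocarcinoma, against 8.1, 8.6, 8.2 and 9.4 in normal mucosa. The difference was -2.43 ± 0.261, but 2 of the 4 adenocarcinomas were at or below the median background probe of their array, so its size is limited by background.

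Normal replicate 4 was the highest sample for Fabp1 and Fabp2, and it was also the highest normal sample for some enterocyte genes but not for others. The brush border sucrase-isomaltase Sis was at 5.7, 5.5, 6.9 and 9.2 in normal replicates 1 to 4, and the lipoprotein loading protein Mttp at 7.6, 7.6, 8.6 and 9.6. The same sample led the normal ones for the glucose transporter Slc5a1 (9.6), the alkaline phosphatase Alpi (11.9) and the apolipoprotein Apoa4 (12.1). It did not lead for the peptidase Anpep (11.1, 11.8, 11.8 and 11.3) or the lactase Lct (7.7, 7.4, 7.9 and 7.8), and for villin (Vil1) it tied with replicate 1 at 10.3. The 8 enterocyte markers averaged 7.98 to 8.63 in adenocarcinoma, against 8.56 to 9.84 in normal mucosa, where replicate 4 had the highest mean. Of these 8, 1 rose (Vil1) and 2 fell (Apoa4 and Lct), but the Lct call was lost in 6 of 19 alternatives (adjusted p up to 0.0766) and the Vil1 call in 2 of 19 (up to 0.0543). Among those 6 were the fits without adenocarcinoma replicate 2 (0.052) and without normal replicates 1 (0.0501), 3 (0.0604) and 4 (0.0612), and the Vil1 call was lost without normal replicate 3. Sis was at or below background in 4 of 4 adenocarcinomas and 2 of 4 normal samples. Without normal replicate 4, the differences were -2.15 for Fabp1 and -3.63 for Fabp2. The choice of Sis, Mttp, Slc5a1, Alpi and Anpep as examples came after their values were seen.

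**Figure D2:**
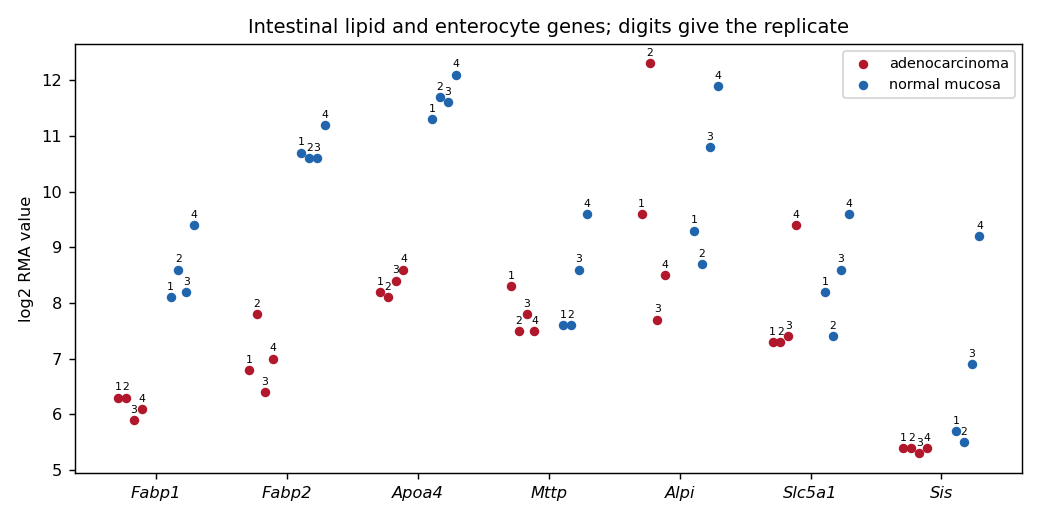
Log2 RMA values (y axis) of Fabp1, Fabp2 and 5 genes of enterocytes or lipoprotein assembly, adenocarcinoma (red) left of normal mucosa (blue), with digits for the replicate. Normal replicate 4 is the highest normal sample for all 7 genes drawn. The enterocyte markers Anpep, Lct and Vil1, for which it did not lead alone, are left out.

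Fabp5, the epidermal form, which is also made in many other epithelia, was lower as well. It was at 10.6, 11.4, 10.4 and 10.5 in adenocarcinoma, against 12.6, 12.5, 12.4 and 12.4 in normal mucosa, a difference of -1.75 ± 0.202 (3.36-fold lower). The groups did not overlap, and replicate 2 was the highest tumour. The deposited table places this probe set on chromosome 9 from 57331735 to 57332428, and a second Fabp5 probe set on chromosome 3 from 10012589 to 10016610. Both are marked there as prone to cross-hybridisation, and they gave nearly the same values, with a difference of -1.78 on chromosome 3. Which copy the signal came from is uncertain. Markers of squamous epithelium, where Fabp5 is abundant, averaged 7.35 to 7.94 in adenocarcinoma, against 7.43 to 7.80 in normal mucosa, with 4 of 11 lower and 0 of 11 higher in the limma test (7 of 11 not called). Of these calls, that of Krt13 was lost in 16 of 19 alternatives, which include each of the 8 with an array left out (adjusted p up to 0.159 over all 19), and that of Krt1 under cyclic loess (0.113) and receptor centring (0.109). Krt4, not called, was at 10.7, 11.6, 8.8 and 7.5 in adenocarcinoma, against 7.6 to 7.8 in normal mucosa. Lor, not called either, was at 8.6, 10.1, 7.3 and 7.0 in adenocarcinoma, against 7.1 to 7.4 in normal mucosa. Replicates 1 and 2 were thus high for both, and Krt4 and Lor were singled out after their values were seen.

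Fabp4 was the exception among the binding proteins. It encodes the adipocyte form, also made by macrophages and capillary endothelium. Its values were 9.0, 10.3, 10.7 and 9.2 in adenocarcinoma, against 9.4, 9.1, 9.2 and 9.2 in normal mucosa. Replicates 2 and 3 were above every normal sample, while replicate 4 lay within the normal range and replicate 1 just below it. The difference of 0.58 ± 0.347 was smaller than the SD among the tumours (0.829, n = 4), and it was 0.28 without adenocarcinoma replicate 3 and 0.84 without replicate 1.

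Fabp4 lies on chromosome 3 from 10204328 to 10208576 on the minus strand, in a cluster with other binding protein genes. The second Fabp5 probe set lies 188 kb away. Of 8 other tested genes within 250 kb of Fabp4, 5 fell and 0 rose, and 3 were not called. Over all genes, 23.6% fell and 18.2% rose. The binding protein gene Fabp12 fell to 6.23 ± 0.15 in adenocarcinoma, against 7.73 ± 0.15 in normal mucosa (SD, n = 4 each; adjusted p = 2e-05), with 2 adenocarcinomas at or below background. The testis form Fabp9, at or below background on all 8 arrays, differed by -0.35 (adjusted p = 0.0174), and the myelin protein gene Pmp2 by -0.10 (adjusted p = 0.406). These 3 were picked for their place in the cluster after their values were seen.

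**Figure D3:**
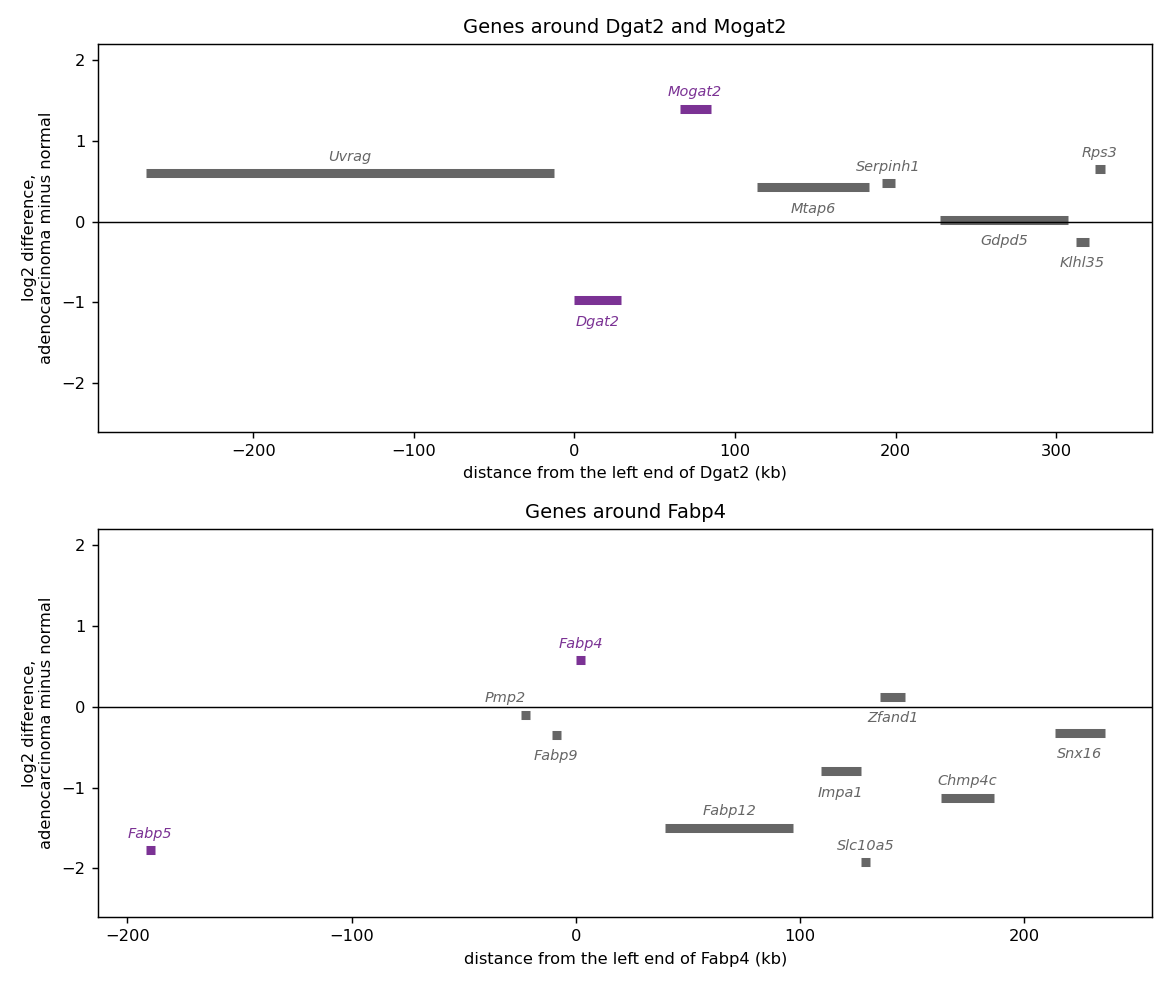
Log2 difference, adenocarcinoma minus normal mucosa (y axis), of genes along 2 stretches of the genome against the distance in kb from the left end of Dgat2 (upper) and Fabp4 (lower). Bars span each gene as the deposited table places it, with members in purple. A pair of small nucleolar RNA genes within Rps3 is not drawn. Dgat2 (-0.98) and Mogat2 (1.40) lie on opposite sides of 0.

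Lpl, the lipase that frees fatty acids from circulating lipoproteins at the capillary wall, was lower and uneven. It was at 9.6, 10.4, 8.0 and 8.2 in adenocarcinoma, against 11.3, 12.2, 11.9 and 11.6 in normal mucosa. Replicates 1 and 2 kept more signal than replicates 3 and 4, and all 4 were below every normal sample. The means were 9.05 ± 1.15 and 11.8 ± 0.387 (SD, n = 4 each), a difference of -2.70 ± 0.496 (6.5-fold lower).

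Cd36, a scavenger receptor that takes up fatty acids in muscle, adipose tissue, endothelium and macrophages, varied most among the tumours. It was at 6.2, 9.9, 10.1 and 7.6 in adenocarcinoma, against 11.4, 11.7, 11.6 and 11.4 in normal mucosa. All 4 tumours were below every normal sample, replicates 2 and 3 least so, and replicate 1 lay near background. The means were 8.45 ± 1.88 and 11.5 ± 0.15 (SD, n = 4 each). The difference of -3.08 ± 0.768 (8.43-fold lower) was -2.33 without adenocarcinoma replicate 1 and -3.63 without replicate 3.

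Marker lists also differed among the 4 tumours. Smooth muscle markers averaged 9.22, 11.9, 12.2 and 10.4 in adenocarcinoma replicates 1 to 4. The tumours with most smooth muscle signal, 2 and 3, were those with the highest Fabp4 and Cd36. Normal mucosa had less smooth muscle signal (7.82 to 7.97) than any tumour, with Cd36 higher (11.4 to 11.7) and Fabp4 at 9.1 to 9.4. The order among the tumours was not particular to smooth muscle. Chief cell markers averaged 7.72, 8.80, 8.66 and 8.40 in the same tumours, also highest in replicates 2 and 3. Parietal cell markers averaged 8.10, 8.31, 8.01 and 8.20, highest in replicates 2 and 4. Endothelial markers averaged 9.69, 9.86, 10.6 and 9.96, highest in replicate 3. Macrophage markers averaged 10.45, 11.1, 10.65 and 11.1, highest in replicates 2 and 4, while Fabp4 and Cd36 were lower in replicate 4 than in replicates 2 and 3. Adipocyte markers averaged 7.66, 8.50, 7.65 and 7.64 in adenocarcinoma, against 7.80 to 8.0 in normal mucosa, and 0 of 8 were called by limma. Within that list the adipocyte hormone Adipoq reached 8.7 in adenocarcinoma replicate 2, against 6.1 to 6.6 in the other 3 tumours and 6.2 to 6.5 in normal mucosa. Pit cell markers averaged 9.58, 12.5, 10.8 and 11.2 in adenocarcinoma, against 13.9 to 14.0 in normal mucosa, so replicate 2 also kept the most surface mucous cell signal. Replicate 1 had the least of it, though it was second highest for Lpl. With 4 tumours no relation between these values was tested, and Adipoq is an example chosen after its values were seen.

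**Figure D4:**
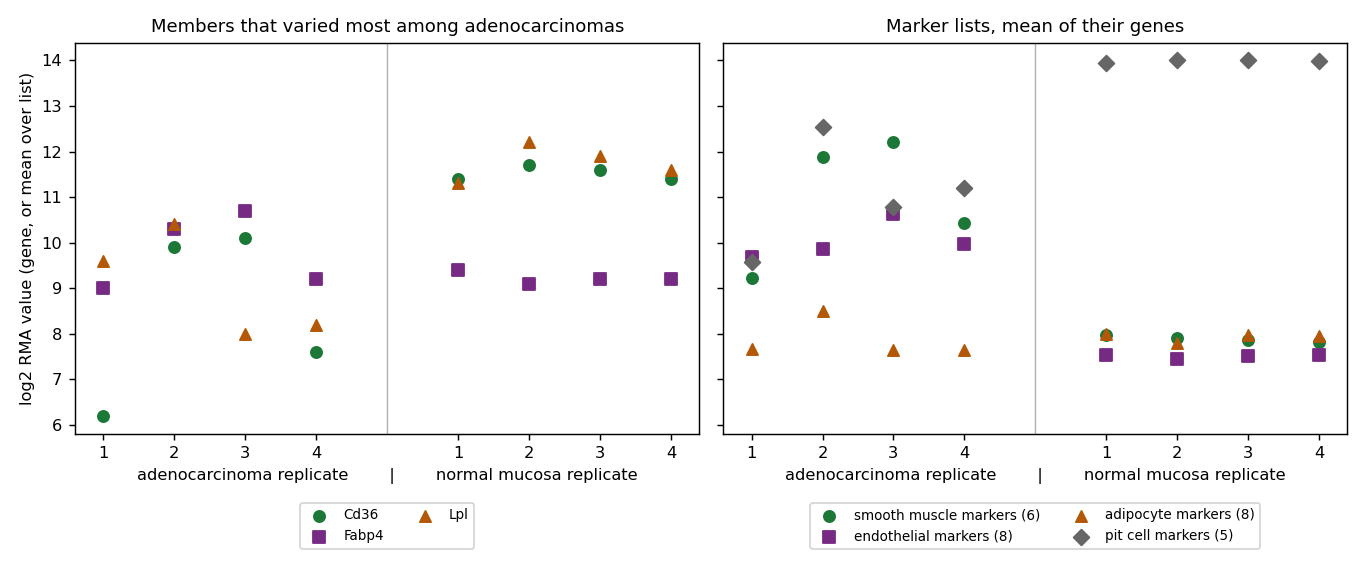
Left, log2 RMA values of Cd36, Fabp4 and Lpl in each array. Right, the mean log2 value of 4 marker lists in the same arrays, with adenocarcinoma replicates left of normal mucosa replicates in both panels. Among tumours, replicates 2 and 3 are highest for Cd36, Fabp4 and smooth muscle markers, and replicate 2 for Lpl, adipocyte and pit cell markers. Chief cell markers, not drawn, were also highest in replicates 2 and 3.

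Across the 10 genes, adenocarcinoma replicate 2 was the highest tumour, or tied for it, for 7 and replicate 3 the lowest, or tied, for 7. The SD among adenocarcinomas was above that among normal samples for 8 of 10, with Fabp1 and Dgat2 the exceptions. The median SD of the 10 was 0.523 in adenocarcinoma and 0.195 in normal mucosa, beside 0.189 and 0.129 over all 21626 genes. The groups did not overlap for 9 of the 10, beside 34.3% of all genes. Of the 10, 8 were lower and 1 higher at an adjusted p under 0.05, where 23.6% of all genes were lower and 18.2% higher, 41.8% in all. Rises made up 43.6% of those calls, and other scalings put that share at 24.8% (arrays centred on their median), 54.8% (cyclic loess) or 73.8% (arrays centred on olfactory and vomeronasal receptor genes). The median difference of the 10 was -2.09, beside -0.10 over all genes.

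Genes whose arrays followed the same course were sought for the 5 members with a difference over 2, as the smallest root mean square difference of log2 values over 8 arrays, each gene centred on its own mean. For Mogat1 they were Apoa1 (0.25), which encodes the main protein of high-density lipoprotein, and both proton pump subunits of parietal cells, Atp4b (0.26) and Atp4a (0.308). For Fabp2 they were Fer1l6 (0.274), the secretin receptor gene Sctr (0.278) and Capn8 (0.286), a calpain of gastric mucous cells. Those of Fabp1 were Acvr1c (0.323), 2200002K05Rik (0.327) and Bglap2 (0.346). For Lpl the measure gave Ces2d-ps (0.31), the E-cadherin gene Cdh1 (0.409) and the quinone reductase gene Nqo1 (0.426). For Cd36 it gave Gkn1 (0.628), a protein of pit cells, Pgc (0.644), which encodes a pepsinogen, and Pdk4 (0.719), a kinase that restrains glucose oxidation. The likeness rests mainly on the shared difference between the groups, and it was looser for Cd36 than for Mogat1.

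The rest of the pathway was read from 8 lists holding 108 measured genes other than the members. Of these, 12 rose and 37 fell by limma at an adjusted p under 0.05, and 59 were not called. That is 11.1% higher and 34.3% lower, beside 18.2% and 23.6% of all genes, with a median difference of -0.21 beside -0.10. The lists overlap in function with the members, and their genes are not independent of each other.

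Among 13 other intracellular lipid-binding proteins, 1 rose and 7 fell (median -0.33). The falls include Fabp9, which was at or below background on all 8 arrays. The heart form Fabp3 fell to 7.6 ± 0.216 in adenocarcinoma, against 12.3 ± 0.258 in normal mucosa (SD, n = 4 each), a difference of -4.70 ± 0.153 (adjusted p = 2.17e-07). Of its 3 probe sets, those on chromosomes 4 and 10 gave -4.70 and -4.55. Both are marked as prone to cross-hybridisation, so which copy the Fabp3 signal came from is uncertain. The other, marked unique, gave -0.35. It lies beside the gene on the opposite strand, so it may not measure the Fabp3 transcript. The intestinal retinol carrier Rbp2 fell too (-2.73 ± 0.431, adjusted p = 0.00147).

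Of 13 genes of fatty acid transport and activation, 3 rose and 5 fell (median -0.23). Of 5 acyl-CoA synthetases named Acsl, which prime fatty acids for use, 1 rose, 2 fell (Acsl1 and Acsl3) and 2 were not called. Acsl1 fell by 1.33 ± 0.147 (adjusted p = 0.000209), and Acsl4, which prefers arachidonic acid, rose by 1.75 ± 0.165 (adjusted p = 8.2e-05). Caveolin-1 (Cav1), a membrane protein abundant in endothelium, smooth muscle and adipocytes, was at 8.4, 10.7, 11.1 and 9.8 in adenocarcinoma, against 7.6, 7.3, 7.4 and 7.3 in normal mucosa, and rose by 2.60 ± 0.494 (adjusted p = 0.00377). Its highest tumours, replicates 2 and 3, were also the highest for Cd36, Fabp4, smooth muscle markers and chief cell markers.

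Genes of glycerolipid synthesis before and beside the last step gave 7 falls and 0 rises among 17 (median -0.28). Of the falls, Dgat2l6, a relative of Dgat2, differed by -0.30 and was at or below background in 4 of 4 adenocarcinomas. Gpam, the mitochondrial enzyme that attaches the first fatty acid to glycerol phosphate, fell by 1.03 ± 0.121 (adjusted p = 0.000289). Agpat4 (-1.45 ± 0.204, adjusted p = 0.000757) and Agpat2 (-0.85 ± 0.137, adjusted p = 0.00161), which belong to the family that adds the next, fell too.

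Apolipoproteins and lipoprotein assembly gave 1 rise and 5 falls among 13 genes (median -0.25). Apoa1 was at 8.3, 9.0, 8.0 and 8.4 in adenocarcinoma, against 13.5, 13.7, 13.8 and 13.7 in normal mucosa, and fell by 5.25 ± 0.191 (adjusted p = 3.44e-07). Apoa4, a protein of chylomicrons, fell by 3.35 ± 0.176 (adjusted p = 2.84e-06), and with its probe sets averaged the difference was -2.13 (adjusted p = 3.3e-06), so they disagree in size. Apoe, the lipoprotein ligand made in quantity by macrophages, rose to 13.4 ± 0.15, against 10.5 ± 0.0957 in normal mucosa (SD, n = 4 each; adjusted p = 2.64e-07), beside the higher macrophage markers given above.

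Among 12 partners and relatives of lipoprotein lipase and its receptors, 2 rose and 3 fell (median -0.05). Angptl4, a secreted inhibitor of lipoprotein lipase, rose by 1.45 ± 0.289 (adjusted p = 0.00478). In adenocarcinoma replicates 1 to 4 it was at 10.1, 9.8, 10.6 and 9.0, where Lpl was at 9.6, 10.4, 8.0 and 8.2. A relation between these transcripts was not tested. Lmf2, a relative of the lipase maturation factor Lmf1, rose by 0.93 ± 0.155 (adjusted p = 0.00193). The endothelial lipase gene Lipg fell by 0.80 ± 0.197 (adjusted p = 0.0127), a call lost with the replicate number as a block (adjusted p = 0.0556).

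Of 13 genes of intracellular and digestive triglyceride hydrolysis, 6 fell and 0 rose (median -0.30). The falls include Lipf, which was at or below background on all 8 arrays. Of the intracellular genes, Abhd5 fell (-0.725), while the lipase genes Pnpla2 (-0.10), Lipe (-0.20) and Lipa (0.28) were not called. These genes were picked after their values were seen. The pancreatic lipase relatives Pnliprp2 (-3.05 ± 0.258, adjusted p = 4.22e-05) and Pnliprp1 (-2.28 ± 0.468, adjusted p = 0.00562) fell, as did Mgll, the lipase that removes the last fatty acid from glycerol (-1.73 ± 0.284, adjusted p = 0.0018).

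Lipid droplet genes were mixed, with 2 rises and 2 falls among 12 (median -0.11). The droplet coat protein gene Plin2 was at 11.3, 11.1, 11.5 and 11.1 in adenocarcinoma, against 8.9, 9.0, 8.8 and 8.9 in normal mucosa, and rose by 2.35 ± 0.11 (adjusted p = 1.5e-06). Hilpda, listed in the table under the older name 2310016C08Rik and known as a hypoxia-induced droplet protein, rose by 1.78 ± 0.364 (adjusted p = 0.0055). Fitm2, which helps droplets bud from the endoplasmic reticulum, fell by 0.65 ± 0.099 (adjusted p = 0.00118).

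Regulators of these genes gave 3 rises and 2 falls among 15 (median 0.05). Gata4, a factor of gastric and upper intestinal epithelium, fell by 1.2 ± 0.102 (adjusted p = 4.22e-05), and Ppara, a nuclear receptor for fatty acids, by 1.0 ± 0.133 (adjusted p = 0.000562). The intestinal factor Cdx2 rose by 1.05 ± 0.366 (adjusted p = 0.0458), but this call was lost in 13 of 19 alternatives, including 7 of the 8 that left out an array, all but adenocarcinoma replicate 3. Hnf4a was at 11.4, 11.5, 11.1 and 11.8 in adenocarcinoma, against 12.0, 11.6, 11.5 and 11.8 in normal mucosa (adjusted p = 0.193), and Pparg at 12.3, 11.9, 11.4 and 11.3, against 12.4, 12.2, 12.0 and 12.4 (adjusted p = 0.077). Ppara, which was called lower, and Hnf4a and Pparg, which were not called, are nuclear receptors of the classes that bind the repeat found before Fabp1. Ppard and Hnf4g, of the same classes, were not called either. Binding at that repeat was not tested. Hnf4a and Pparg were picked after their values were seen.

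**Figure D5:**
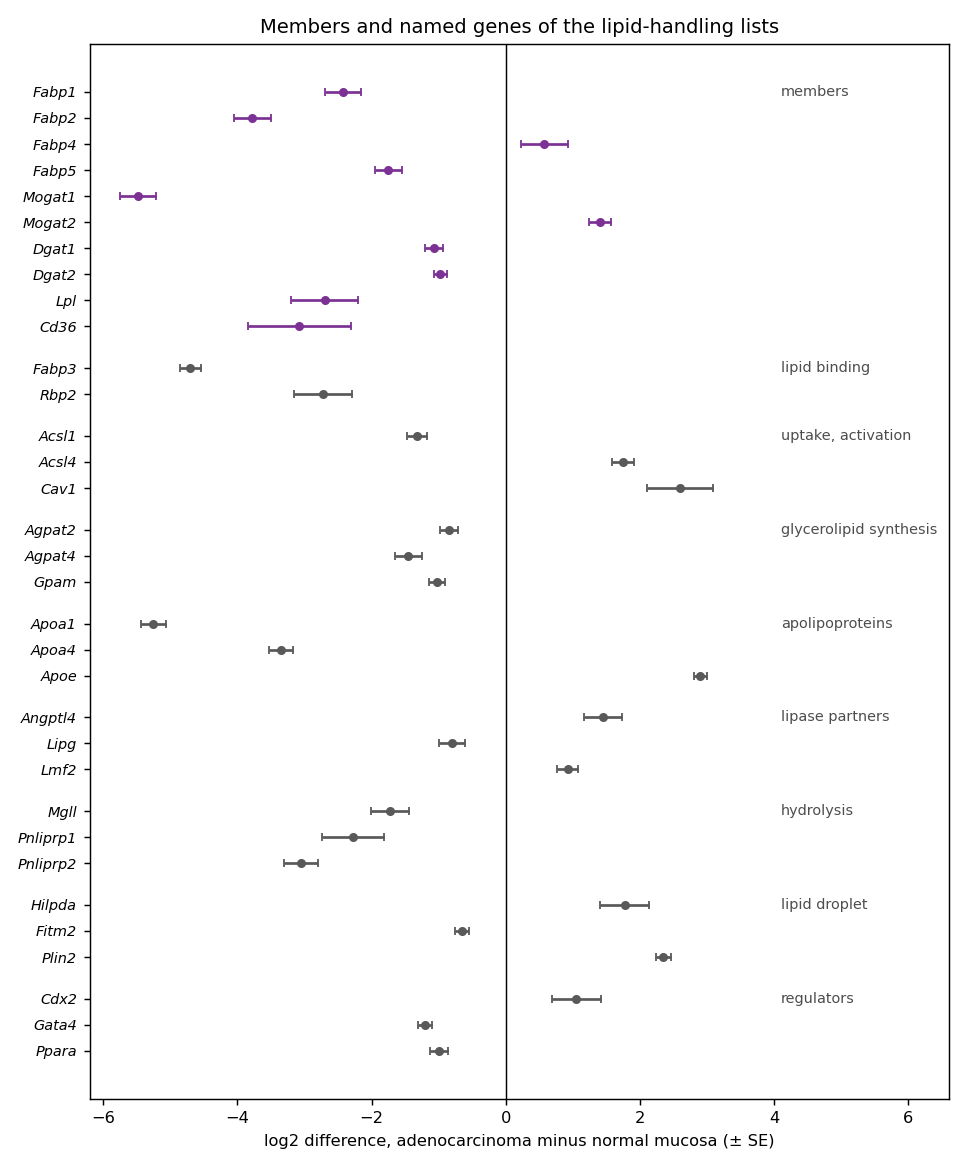
Log2 differences, adenocarcinoma minus normal mucosa (x axis), with bars of 1 SE, for the 10 members (purple) and the called genes of largest change in each lipid-handling list (grey, at most 3 a list). Most members lie left of 0, with Mogat2 (1.40) and Fabp4 (0.58) to the right.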

How the data were processed

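Total RNA of 8 mouse stomach samples was measured on Affymetrix arrays, per the labels' protocols. The authors deposited log2 values made with RMA, per the submitters' processing notes, and rounded to 1 decimal. Rounding limits small differences. Both deposited tables held the same 284448 values (0 differed), and no version, scanner file, array date or genome build is given in the sources used here, and batches were not tested. The brightest probe set on average stood for each of 21626 genes. Adenocarcinoma was compared with normal mucosa over all genes with lmFit and eBayes of limma 3.58.1 in R 4.3.3 (two-sided, Benjamini-Hochberg), with calls at an adjusted p under 0.05. With 4 arrays a group, precision is limited by their number. The code was tested on simulated data. The background is the median of 45 antigenomic probe sets on each array.

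The members and lists were chosen with earlier results of these data known. Of 109 listed pathway genes, 108 were measured. Named genes were the members, the 3 called genes of largest change per pathway list, the 3 genes most alike per member, and Xist; 1 gene that this rule names is not reported here. Marker lists are given as list means in place of their 3 named genes. No set test was run. Alternatives were median centring, cyclic loess, centring on olfactory and vomeronasal receptor genes, 32 intensity units added, array weights, averaging the probe sets of a gene, dropping the dimmest 30% of genes, a trended robust eBayes, a replicate block, noise of plus or minus 0.05, an adjusted p under 0.01 and each array left out. Chosen after seeing the data were probe sets marked unique and the Fabp5 probe set on chromosome 3. Figures were drawn with Python 3.11.15 and matplotlib 3.10.9.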

Additional observations from a re-analysis of the deposited data

Results flagged for a closer look

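Fabp2 in normal mucosa replicate 4, at 11.2, stood apart from the other 3 normal samples (10.6 to 10.7) by Dixon's test for a single outlying sample. Dgat2 in adenocarcinoma replicate 4, at 11.5, stood apart from the other 3 adenocarcinomas, which were all at 11.4, a gap of a single rounding step. In 20 groups of 4 tested, chance flags about 1 in 20.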

How the results depend on the processing

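Each member kept the sign of its difference under every alternative in which it was measured. Fabp1 was not in the fit without the dimmest 30% of genes. Dgat2 moved by over 1 SD after median centring (-1.11) and after centring on receptor genes (-0.83), and no other member did. Each of these centrings shifts the difference of every gene by the same amount, and Dgat2 had the smallest SD within groups among the members. The 108 pathway genes gave 39 to 60 calls, except 37 at an adjusted p under 0.01, always more falls than rises. Over all genes, the 9041 calls became 4288 (2376 higher, 1912 lower) at an adjusted p under 0.01. The 5099 falls became 9272 after median centring, 3239 after cyclic loess, 1700 after centring on receptor genes and 3181 without the dimmest 30% of genes. Those scalings put rises at 24.8%, 54.8% and 73.8% of calls, against 43.6%, and without the dimmest genes at 53.4%; the median difference of all genes moved to -0.24, -0.01 and 0.05 under these scalings in that order, from -0.10. Leaving out an array gave 5948 to 9061 calls, with 2944 to 3966 higher and 2975 to 5456 lower. The replicate block gave 8097 calls and 47 among pathway genes. Same-numbered arrays deviated together with correlations of -0.18 to 0.16, so the numbers were not taken as pairs. Of 24 named pathway genes, 22 kept their call throughout. Lipg lost it under the replicate block (adjusted p = 0.0556) and at an adjusted p under 0.01 (range over its alternatives 0.00509 to 0.0556), and Cdx2 in 13 of 19 (0.00163 to 0.103). The cause was not tested.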
